A study of Mus musculus with 6 samples.

Results

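The neural crest regulators described here are 10 genes, found by symbol among the 24062 genes counted in mouse embryo heads: the AP-2 genes Tfap2a, Tfap2b and Tfap2c and the forkhead gene Foxd3, which act in crest specification, the SoxE genes Sox9 and Sox10, the Snail genes Snai1 and Snai2 and the ETS gene Ets1, which act around emigration, and Erbb3, a receptor of migrating crest. All 10 had counts and passed the filter on low counts. RNA came from dissected heads of C57BL/6 embryos at E8.5, when the neural folds of the head are closing. The genotypes, with 2 libraries each, were mutant (Prdm15 tm1a-/-), heterozygous (Prdm15 tm1a+/-) and wild type (Prdm15 tm1a+/+); Prdm15 encodes a zinc finger protein, and tm1a is a knockout-first allele, whose inserted cassette is meant to cut the transcript short in every cell. The labels give no litter, batch or sex. They do not say that the 2 libraries of a genotype are separate litters, so the p-values reflect the scatter among these libraries alone.

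Neural crest cells arise at the border of the neural plate, where AP-2 factors and FOXD3 specify them. They then lose their epithelial contacts, a step in which Snail repressors act, and move into the head and pharyngeal arches. In the mouse head they begin to leave the neural folds around this stage, before the tube closes. SOX10 marks migrating crest and its glial and pigment lineages, and SOX9 acts in crest and in cartilage, otic and notochord cells. None of the 10 genes is restricted to crest. Surface ectoderm also uses Tfap2a and Tfap2c, endothelium uses Ets1, and head mesenchyme uses the Snail genes.

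Between 29412227 and 40439234 reads per library were assigned to genes, so 3 reads equalled 0.0742 to 0.102 CPM (counts scaled to a common library size) in a library. For wild-type replicate 2 and mutant replicate 1 the attached count files bore each other's titles. Each of these 2 files matched the RPKM column titled as its file name, with 0 genes differing in zero status, against 1646 for the column of its own sample, and files were therefore assigned by title. With the files as attached, 0 of the 10 genes and 0 of all genes passed in any comparison by edgeR's quasi-likelihood test (318, 48 and 422 genes at an unadjusted p under 0.05 in mutant against wild type, heterozygous against wild type and mutant against heterozygous; DESeq2 passed 86, 1 and 98). Prdm15 itself was counted at 26.6 and 32.0 CPM in mutant, 28.3 and 31.8 in heterozygous and 35.2 and 32.6 in wild-type libraries (adjusted p = 0.221 in mutant against wild type). Whole-gene counts over an insertion allele do not check the genotype labels.

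In mutant against wild-type heads 6 of the 10 genes fell and 1, Snai2, rose (edgeR's quasi-likelihood F-test, p-values adjusted by Benjamini-Hochberg over all genes). Sox10 and Tfap2b were nearly gone, while Tfap2a, Sox9, Erbb3 and Ets1 were 2.06- to 2.79-fold lower. Of all 15187 genes tested 30.6% passed, 13.6% as lower and 17.1% as higher. At an unadjusted p under 0.05 there were 10 of the 10 genes and 43.8% of all genes. The 2 groups did not overlap for any of the 10 genes, with 9 lower and 1 higher in mutant libraries, where 36.1% of all genes were lower and 34.9% higher without overlap. The median log2 fold change of the 10 genes was -1.24, against -0.02 over all genes tested. Tfap2c, Foxd3 and Snai1 had adjusted p-values of 0.0581, 0.0583 and 0.0561 and did not pass. DESeq2 passed 9 of the 10 genes and edgeR's likelihood ratio test 10, tools that passed 5074 and 4452 of all genes. In the authors' deposited table, which gives a likelihood ratio test, all 10 had a false discovery rate under 0.05, 9 lower and 1 higher. Of its 24062 genes, taken without the filter on low counts used for the other shares, 5.56% were lower and 8.74% higher. Both libraries whose titles and files disagreed were also left out, so that no value rests on their assignment. The log2 fold changes of all 10 genes kept their sign. They were -6.57 for Sox10, -6.74 for Tfap2b, -3.29 for Foxd3 and 0.81 for Snai2, and -0.46 (Tfap2c) to -1.485 (Sox9) for the others. That fit rests on 1 mutant and 1 wild-type library, taken to vary like the heterozygous ones, so only effect sizes are given here.

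**Figure D1:**
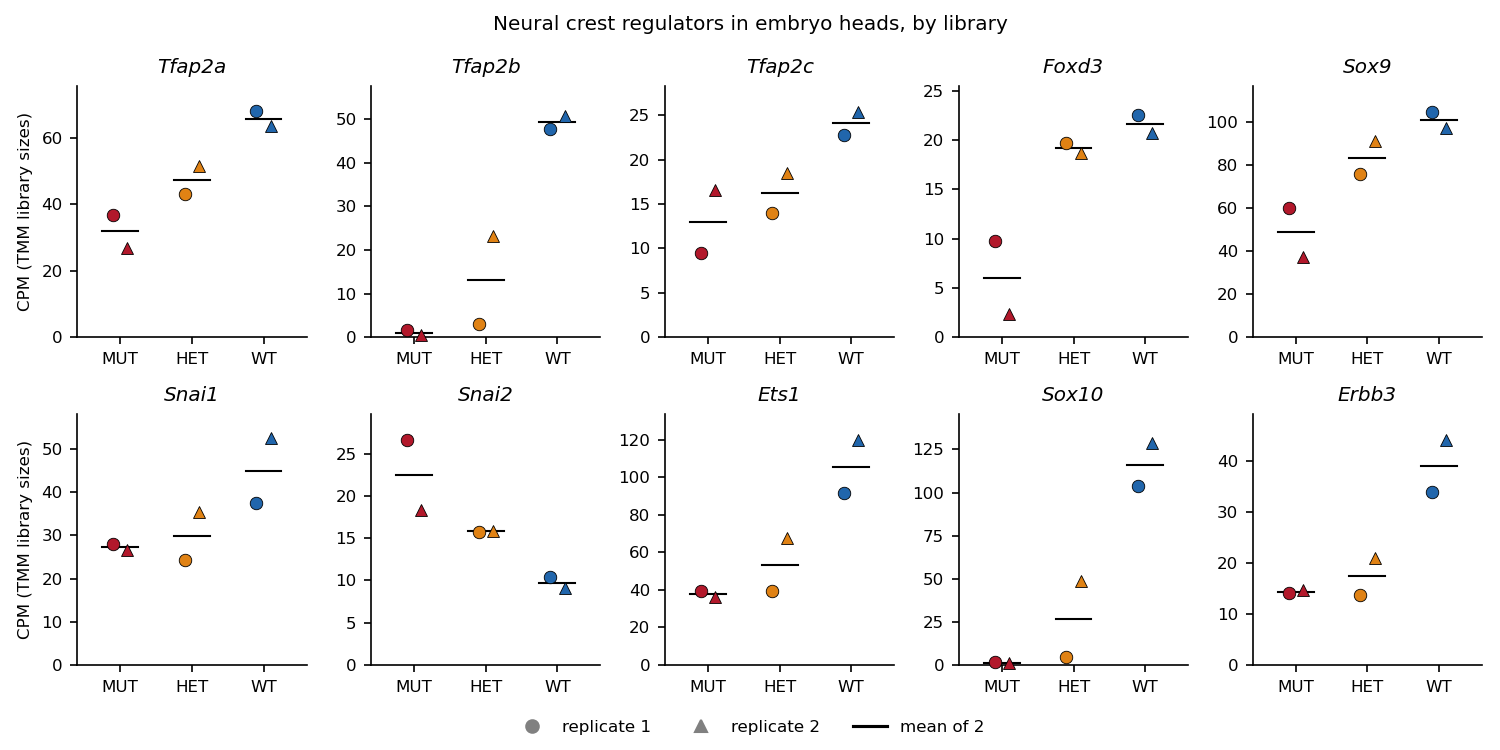
Level of each of the 10 genes in CPM (TMM library sizes) in mutant (MUT), heterozygous (HET) and wild-type (WT) libraries; points are single libraries, the shape gives the replicate and lines are means of 2. Sox10 and Tfap2b were at 1.65 CPM or below in mutant libraries and differed between the heterozygous libraries, at 4.35 and 48.8 CPM for Sox10.

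Among the specification factors, Tfap2b changed most. It lies on chromosome 1 (19208914 to 19238576, plus strand, GRCm38). Tfap2b stood at 1.62 and 0.443 CPM in mutant libraries, 3.03 and 23.2 CPM in heterozygous and 47.7 and 50.8 CPM in wild-type libraries. Both mutant libraries and heterozygous replicate 1 were low, heterozygous replicate 2 was intermediate and the wild-type libraries were high. The counts behind the mutant values were 61 and 13 reads. Its level in mutant heads was 45.7-fold lower than in wild type, a log2 fold change of -5.51 (SE 1.07, adjusted p = 0.0151). It did not pass without mutant replicate 1 (-6.78, adjusted p = 0.0633) or without mutant replicate 2 (-4.93, adjusted p = 0.0774).

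Tfap2a (chromosome 13, 40715302 to 40738376, minus strand), required in mouse for closure of the cranial neural tube and for face development, was at 36.9 and 26.9 CPM in mutant, 43.0 and 51.5 CPM in heterozygous and 68.0 and 63.5 CPM in wild-type libraries. The 3 genotypes did not overlap. Tfap2a fell by 1.04 on the log2 scale in mutant against wild type (SE 0.17, adjusted p = 0.00863). Tfap2c (chromosome 2, 172549593 to 172558622, plus strand), which also acts in germ cells and trophoblast, was at 9.47 and 16.6 CPM in mutant, 14.0 and 18.5 CPM in heterozygous and 22.8 and 25.4 CPM in wild-type libraries, and its change of -0.89 (SE 0.28) did not pass (adjusted p = 0.0581). The change was -1.36 without mutant replicate 2 and -0.53 without mutant replicate 1. Tfap2c passed under 4 of the 18 alternatives tried, among them DESeq2 (adjusted p = 0.0119). By RPKM, a unit scaled to gene length, Tfap2b made up 1.70% and 0.493% of the summed level of Tfap2a, Tfap2b and Tfap2c in mutant libraries, 2.55% and 14.0% in heterozygous and 20.6% and 21.9% in wild-type libraries. The make-up of AP-2 transcripts thus differed between mutant and wild-type libraries without overlap; with 2 libraries a group no exact permutation test of such a share can pass. Antisense genes overlap Tfap2a and Ets1 in the annotation and have no count of their own, and the strand setting of the counting is not given in the sources used here.

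Promoters, from 250 bases before to 50 after a RefSeq start on GRCm38.p6, were at hand for Tfap2a, Tfap2b, Foxd3 and Snai1. That of Tfap2b and the first of 2 listed for Tfap2a are shown as the pair of paralogs at hand, and that of Snai1 as the only one of these with a match to all 3 motifs searched. Capitals mark matches, on either strand, to the AP-2 motif GCCNNNGGC, the SOX motif ACAANG and the Snail E-box CAGGTG.
Tfap2b: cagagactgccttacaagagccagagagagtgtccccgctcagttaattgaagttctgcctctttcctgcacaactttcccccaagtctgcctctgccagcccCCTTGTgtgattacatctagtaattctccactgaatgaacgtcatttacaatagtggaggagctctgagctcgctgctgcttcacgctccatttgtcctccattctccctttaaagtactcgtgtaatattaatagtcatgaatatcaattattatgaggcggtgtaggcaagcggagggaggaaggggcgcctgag
Tfap2a: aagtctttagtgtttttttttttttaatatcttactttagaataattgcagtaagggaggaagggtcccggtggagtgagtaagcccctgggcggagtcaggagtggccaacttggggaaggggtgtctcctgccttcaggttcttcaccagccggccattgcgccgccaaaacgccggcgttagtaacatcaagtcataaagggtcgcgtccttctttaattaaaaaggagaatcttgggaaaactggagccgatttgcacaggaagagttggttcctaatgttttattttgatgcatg
Snai1: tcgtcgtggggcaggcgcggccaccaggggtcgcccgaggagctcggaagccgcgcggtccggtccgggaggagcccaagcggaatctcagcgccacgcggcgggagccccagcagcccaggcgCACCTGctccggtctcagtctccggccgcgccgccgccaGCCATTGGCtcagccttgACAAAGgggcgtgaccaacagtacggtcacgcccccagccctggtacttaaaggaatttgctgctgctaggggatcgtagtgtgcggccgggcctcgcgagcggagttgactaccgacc
These lie at chr1:19211804-19212103 (plus strand), chr13:40734871-40735170 (minus strand) and chr2:167537945-167538244 (plus strand). The Tfap2b promoter held 1 SOX match and neither of the others, both of those listed for Tfap2a held none, and that of Snai1 held 1 of each. Over 32851 promoters of the same length, 16.6% held the AP-2 motif, 41.2% the SOX motif and 20.2% the Snail E-box. GC content was 48.3% for Tfap2b, 46.3% for the Tfap2a promoter shown, 61.0% for its other one at chr13:40733746-40734045 (minus strand) and 70.0% for Snai1, against a median of 52.7% over all promoters. A match describes letters and is no binding site.

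Foxd3 (chromosome 4, 99656299 to 99658622, plus strand), which keeps crest progenitors multipotent, was at 9.74 and 2.32 CPM in mutant libraries, 19.7 and 18.7 CPM in heterozygous and 22.6 and 20.8 CPM in wild-type libraries. Both mutant libraries were lower than every other library, and they differed from each other more than the libraries of the other genotypes did. The mutant against wild-type change of -1.83 (SE 0.57) did not pass (adjusted p = 0.0583). It was -3.22 without mutant replicate 1 and -1.17 without mutant replicate 2, so the size of the change rests on which mutant library is used. With 1 mutant library left a fit holds no spread between mutant libraries, so no p-value is read from these 2 fits. Where calls of other genes are said to be lost in such fits, the same limit holds. Foxd3 passed under 8 of the 18 alternatives tried, some of them fits of this kind. Foxd3 and Snai2 were the genes whose heterozygous libraries were closest together.

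Sox10 (chromosome 15, 79154908 to 79165240, minus strand) was the most abundant of the 10 genes per length in wild-type heads and among the lowest in mutant heads. It was at 1.65 and 1.09 CPM in mutant libraries (62 and 32 reads), 4.35 and 48.8 CPM in heterozygous and 104 and 129 CPM in wild-type libraries (4284 and 4519 reads). Mutant libraries and heterozygous replicate 1 were low, and heterozygous replicate 2 lay below both wild-type libraries. Sox10 was thus 83.2-fold lower in mutant than in wild-type heads, a log2 fold change of -6.38 (SE 1.21, adjusted p = 0.0140). Without mutant replicate 1 it was -6.72 (adjusted p = 0.0809) and without mutant replicate 2 -6.14 (adjusted p = 0.0792). Sox9 (chromosome 11, 112782224 to 112787760, plus strand) was at 59.7 and 37.4 CPM in mutant, 75.6 and 91.0 CPM in heterozygous and 104 and 97.0 CPM in wild-type libraries. Its change of -1.05 (SE 0.22, adjusted p = 0.0183) did not pass without wild-type replicate 1 (-0.98, adjusted p = 0.0682). By RPKM, Sox10 made up 4.03% and 4.20% of the summed SoxE genes Sox8, Sox9 and Sox10 in mutant libraries, 8.01% and 44.7% in heterozygous and 59.8% and 66.3% in wild-type libraries. Sox8, the remaining gene of that group, was at 0.266 and 0.409 CPM in mutant and 1.43 and 2.19 CPM in wild-type libraries and fell by 2.42 (SE 0.44) on the log2 scale (adjusted p = 0.0121); without mutant replicate 1 it did not pass (adjusted p = 0.0757).

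The genes linked to emigration did not move together. Snai2 (chromosome 16, 14705852 to 14709385, plus strand), the zinc finger repressor also called Slug, was at 26.6 and 18.3 CPM in mutant, 15.8 and 15.9 CPM in heterozygous and 10.4 and 9.04 CPM in wild-type libraries. The 3 genotypes did not overlap, with mutant libraries highest. Snai2 rose by 1.21 (SE 0.19) on the log2 scale in mutant against wild type (adjusted p = 0.00834). Snai1 (chromosome 2, 167538195 to 167542814, plus strand), a repressor of E-cadherin, was at 28.0 and 26.6 CPM in mutant, 24.4 and 35.3 CPM in heterozygous and 37.5 and 52.5 CPM in wild-type libraries. Its change of -0.72 (SE 0.22) did not pass (adjusted p = 0.0561), and passed under 9 of the 18 alternatives tried, among them DESeq2 (adjusted p = 0.009). By RPKM, Snai2 made up 42.9% and 35.2% of the summed Snai1 and Snai2 level in mutant, 33.8% and 26.2% in heterozygous and 17.9% and 11.97% in wild-type libraries. Ets1 (chromosome 9, 32636221 to 32757820, plus strand), which in chick supports emigration of cranial crest and is active in endothelium, was at 39.2 and 36.4 CPM in mutant, 39.2 and 67.5 CPM in heterozygous and 91.6 and 120 CPM in wild-type libraries. Mutant libraries and heterozygous replicate 1 were alike, and both wild-type libraries stood above all others. Ets1 fell by 1.48 (SE 0.27, adjusted p = 0.0119) on the log2 scale and did not pass without mutant replicate 1 or mutant replicate 2 (adjusted p = 0.0607 and 0.0628).

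Erbb3 (chromosome 10, 128567523 to 128589652, minus strand) encodes a neuregulin receptor that signals as a partner of ERBB2 and is needed by crest-derived glia. Erbb3 was at 14.1 and 14.7 CPM in mutant, 13.8 and 20.9 CPM in heterozygous and 34.0 and 44.1 CPM in wild-type libraries. The heterozygous libraries overlapped the mutant ones and lay below both wild-type libraries. Erbb3 fell by 1.44 on the log2 scale in mutant against wild type (SE 0.22, adjusted p = 0.00774). Its partner Erbb2 was at 76.0 and 75.4 CPM in mutant and 76.0 and 89.7 CPM in wild-type libraries (-0.13, SE 0.10, adjusted p = 0.346). Neither Egfr (-0.12, adjusted p = 0.769) nor Erbb4 (0.71, adjusted p = 0.555) passed. The neuregulin gene Nrg1 was at 6.41 and 9.13 CPM in mutant and 12.9 and 10.1 CPM in wild-type libraries and did not pass (adjusted p = 0.146). Of 9 ERBB ligand genes 6 were tested, 2 rose (Hbegf, heparin-binding EGF-like factor, at 0.97, adjusted p = 0.0107, and Nrg4 at 2.01, adjusted p = 0.0262) and 0 fell. Over all genes tested 17.1% rose and 13.6% fell. Hbegf did not pass without mutant replicate 1 (adjusted p = 0.0568) or with a term for high Xist (adjusted p = 0.0544). Nrg4 was at 0.818 CPM or below in every library, and did not pass under DESeq2 (adjusted p = 0.0503) or without any single mutant or wild-type library.

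**Figure D2:**
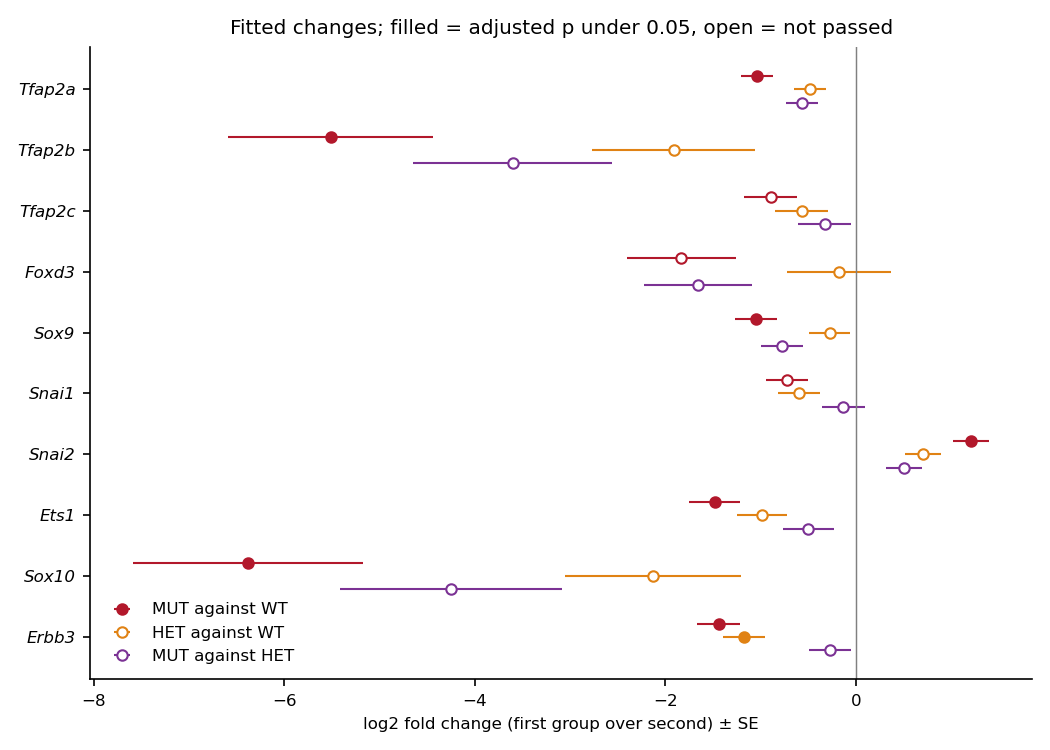
Log2 fold change with its SE for the 10 genes in 3 comparisons from 1 fit over 6 libraries; filled points passed at an adjusted p under 0.05. In mutant (MUT) against wild type (WT) 7 points are filled, in heterozygous (HET) against wild type 1, Erbb3, and in mutant against heterozygous 0.

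Mean heterozygous levels of all 10 genes lay between the mutant and wild-type means, but heterozygous replicate 1 was below both mutant libraries for Erbb3 and Snai1. Heterozygous and wild-type libraries did not overlap for any of the 10 genes, 9 being lower and 1 higher in heterozygous libraries, where 27.6% of all genes were lower and 28.7% higher without overlap. Erbb3 fell in heterozygous against wild type, at -1.17 (SE 0.22, adjusted p = 0.0379), where 6.56% of all genes passed, 0.533% as lower and 6.03% as higher. At an unadjusted p under 0.05 there were 5 of the 10 genes and 23.7% of all genes. The log2 fold change of Erbb3 was -0.89 without heterozygous replicate 1 and -0.98 without wild-type replicate 2. Each of these fits leaves 1 library in a compared group, so no p-value is read from it. Erbb3 passed under 10 of the 18 alternatives tried, but not without either mutant library. The other 9 did not pass, with log2 fold changes of -2.13 for Sox10 (SE 0.93), -1.91 for Tfap2b (SE 0.86), -0.99 for Ets1 (SE 0.26), 0.70 for Snai2 (SE 0.19), -0.48 for Tfap2a (SE 0.17) and -0.17 to -0.59 for the remaining 4. In mutant against heterozygous 0 of 10 passed in edgeR's quasi-likelihood test, where 0.435% of all genes passed, 0.362% as lower and 0.0724% as higher. In that comparison 6 of the 10 had an unadjusted p under 0.05, as did 21.3% of all genes, while DESeq2 passed 4 and the likelihood ratio test 3, tools that passed 1313 and 801 of all genes. Mutant and heterozygous libraries did not overlap for 7 genes, 6 of them lower and 1 higher in mutant libraries, where 26.4% of all genes were lower and 27.6% higher without overlap. The 6 include Ets1, nearly equal at 39.221 CPM in mutant replicate 1 and 39.227 CPM in heterozygous replicate 1. Sox10 changed by -4.25 (SE 1.16, adjusted p = 0.133) and Tfap2b by -3.60 (SE 1.05, adjusted p = 0.144) there. Against the midpoint of mutant and wild type on the log2 scale the heterozygous value was 1.06 higher for Sox10 (SE 0.84) and 0.45 lower for Erbb3 (SE 0.19), and 0 of 10 passed in the quasi-likelihood test, DESeq2 or the likelihood ratio test, and 0 had an unadjusted p under 0.05 in the first. Of all genes 0.632% passed there, 0.632% higher and 0% lower, and 9.84% had an unadjusted p under 0.05. Foxd3 passed as above the midpoint without mutant replicate 1, a fit that holds no spread between mutant libraries. These comparisons share libraries, so their values are not independent.

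The heterozygous libraries differed from each other at Sox10 and Tfap2b as at few other genes. Sox10 was 11.2-fold and Tfap2b 7.67-fold higher in heterozygous replicate 2 than in replicate 1. On the scale of log2(CPM + 0.5) the gaps were -3.35 and -2.75, against a median absolute gap of 0.13 over 15187 genes, and 6 and 8 genes had a larger absolute gap. Ets1 (-0.78), Erbb3 (-0.59) and Snai1 (-0.52) had smaller gaps of the same sign, while Foxd3 (0.07) and Snai2 (-0.01) had nearly none. Heterozygous replicate 1 was lower than replicate 2 for 9 of the 10 genes, and for 51% of all genes tested. Without heterozygous replicate 2, the heterozygous against wild-type log2 fold change was -4.74 for Sox10, -4.02 for Tfap2b and -1.43 for Ets1. Without heterozygous replicate 1, that of Sox10 was -1.245, and its mutant against heterozygous change was -5.14. Such fits leave 1 heterozygous library and hold no spread between heterozygous libraries, so no p-value is read from them here. The 6 genes with a larger gap than Sox10, looked up after the gap was seen, were the embryonic globin genes Hba-x, Hbb-bh1 and Hbb-y and the Nodal pathway genes Nodal, Lefty1 and Lefty2. Hba-x was at 13.7 and 3.37 CPM in mutant, 1.74 and 123 CPM in heterozygous and 82.3 and 119 CPM in wild-type libraries. Nodal was at 7.42 and 8.04 CPM in mutant, 8.86 and 0.0335 CPM in heterozygous and 0 and 0.0853 CPM in wild-type libraries. For both, heterozygous replicate 1 lay with the mutant libraries and replicate 2 with the wild-type ones. Their part in the crest values was not tested, and reads of globin genes can be shared among paralogs.

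**Figure D3:**
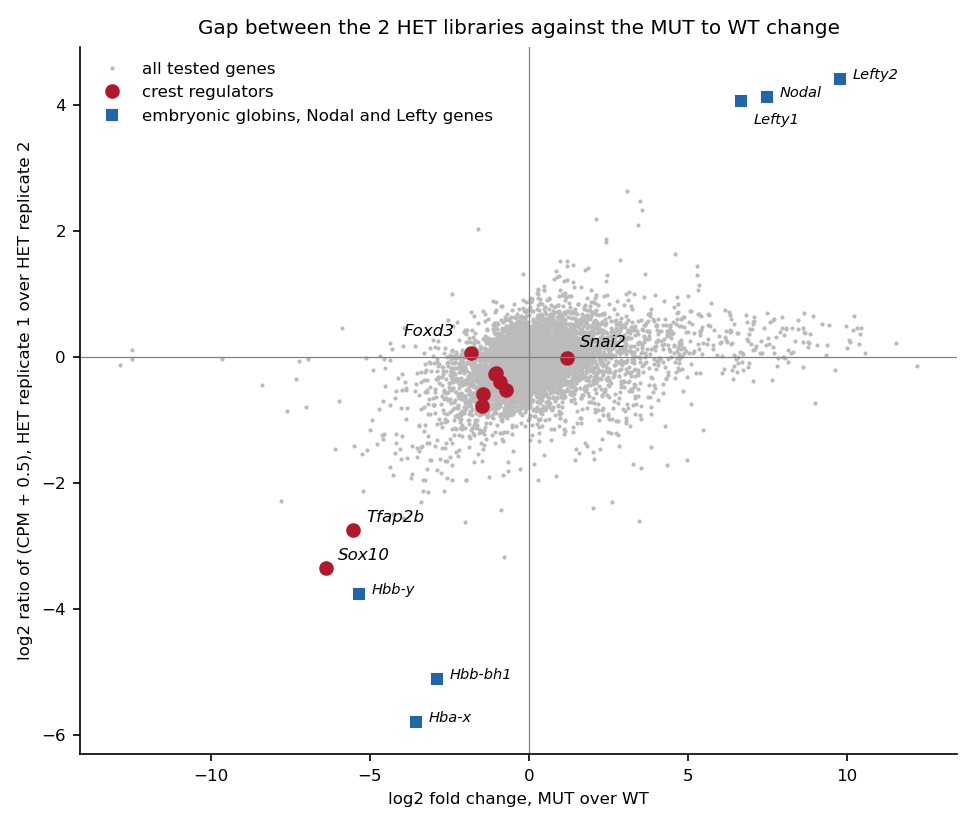
For each tested gene, the mutant (MUT) over wild-type (WT) log2 fold change on the x axis and the log2 ratio of (CPM + 0.5) in heterozygous (HET) replicate 1 over replicate 2 on the y axis; red points are the 10 crest regulators and blue squares the 6 genes with a larger gap than Sox10. Sox10 and Tfap2b lie apart from the other 8, at gaps of -3.35 and -2.75.

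Ranked by RPKM in wild-type heads, Sox10 averaged 42.9 ± 6.44 (SD, n = 2), followed by Snai1 at 28.4 ± 6.64, Sox9 at 24.4 ± 1.31, Tfap2a at 21.2 ± 1.04 and Ets1 at 20.9 ± 3.90. Erbb3 followed at 9.74 ± 1.77, then Foxd3 at 9.16 ± 0.561, Tfap2c at 8.53 ± 0.634, Tfap2b at 8.01 ± 0.346 and Snai2 at 4.84 ± 0.477. In this order the single libraries of neighbours overlapped between Snai1 and Sox9, between Tfap2a and Ets1, and from Erbb3 down to Tfap2b, and did not overlap between the other neighbours. In mutant heads the order was another one, with Snai1 at 17.1 ± 0.535, Sox9 at 11.7 ± 3.75, Snai2 at 11.1 ± 2.88, Tfap2a at 10.2 ± 2.21 and Ets1 at 7.45 ± 0.360 on top. Tfap2c was at 4.58 ± 1.79, Erbb3 at 3.57 ± 0.127 and Foxd3 at 2.53 ± 2.19, and Sox10 at 0.503 ± 0.143 and Tfap2b at 0.167 ± 0.134 were lowest. Neighbours in mutant heads overlapped from Sox9 to Tfap2a and from Tfap2c to Foxd3, and Sox10 and Tfap2b did not overlap. In heterozygous heads Sox9 (20.1 ± 2.59) and Snai1 (18.8 ± 4.82) were highest and Tfap2b (2.13 ± 2.31) lowest, and the SD of Sox10 (9.79 ± 11.6) exceeded its mean.

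Other genes of the families were measured beside the 10. Of 14 such relatives 10 were tested, 2 fell and 0 rose in mutant against wild type, with a median log2 fold change of -0.13. Over all genes tested 13.6% fell and 17.1% rose. Besides Sox8, the head mesenchyme gene Foxd1 fell by 1.11 (SE 0.31, adjusted p = 0.0432), with 16.4 and 15.9 CPM in mutant against 27.8 and 42.2 CPM in wild-type libraries. Foxd1 did not pass without wild-type replicate 2 (-0.79, adjusted p = 0.130), mutant replicate 1 (adjusted p = 0.151) or mutant replicate 2 (adjusted p = 0.148). Foxd2 (-0.58, adjusted p = 0.0629) and Scrt2 (-0.42, adjusted p = 0.657) did not pass. The ETS genes Ets2, Erg and Fli1, of which Erg and Fli1 mark endothelium, were at 0.10, 0.23 and 0.19 (adjusted p = 0.514, 0.333 and 0.360). Tfap2d, Tfap2e, Snai3 and Scrt1 were below the filter, at 0.338 CPM or less in every library.

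The wider crest programme was mixed. Over all genes tested 13.6% passed as lower and 17.1% as higher in mutant against wild type. Of 10 neural plate border genes 4 fell and 2 rose in mutant heads (median log2 fold change -0.05). Pax3 (-1.17, SE 0.24, adjusted p = 0.0174) and Pax7 (-1.27, SE 0.28, adjusted p = 0.0211), paired box genes of the dorsal neural tube, and Dlx5 (-0.86, SE 0.17, adjusted p = 0.0148) fell, while the BMP target Msx2 rose (0.89, SE 0.14, adjusted p = 0.00905). Leaving out 1 library ended the call of Pax3 (mutant replicate 1, mutant replicate 2 or wild-type replicate 1), of Pax7 (mutant replicate 2 or wild-type replicate 1), of Dlx5 (wild-type replicate 1) and of Msx2 (mutant replicate 1), at adjusted p-values of 0.0541 to 0.0875. Of 12 other specifiers 6 fell and 3 rose (median -0.48). Myc (-0.92, SE 0.16, adjusted p = 0.0117), Mycn (-0.37, SE 0.07, adjusted p = 0.0114) and the roof plate gene Lmx1b (-0.96, SE 0.16, adjusted p = 0.0101) fell and Bmp4, a ligand that induces border genes, rose (2.07, SE 0.22, adjusted p = 0.00254). Myc did not pass without mutant replicate 2 (adjusted p = 0.0583), and Mycn not without mutant replicate 1, mutant replicate 2 or wild-type replicate 1 (adjusted p = 0.0506 to 0.0658). Of 12 emigration genes 5 fell and 4 rose (median -0.18), with the E-cadherin repressor Zeb2 (-0.66) and the crest cadherin Cdh6 (-0.99) lower and E-cadherin itself, Cdh1 (1.10), and fibronectin, Fn1 (0.65), higher; E-cadherin is also a marker of surface ectoderm and of endoderm. Of 14 genes of migrating crest 5 fell and 3 rose (median -0.53), among them the guidance receptor genes Robo1 (-0.78), Nrp1 (2.40) and Plxna2 (0.57) and Pdgfra (1.20), which mesoderm uses as well. The adjusted p of these 8 lay between 0.000519 and 0.00811.

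Of 10 known targets of SOX10 in glia and pigment cells 9 were tested, 4 fell and 1 rose (median -1.12). Over all genes tested 13.6% fell and 17.1% rose in that comparison of mutant and wild type. Erbb3 and Sox8 are counted among the targets too. Gjb1, a connexin gene that liver and endoderm express too, rose, at 9.90 and 7.46 CPM in mutant, 4.03 and 3.35 CPM in heterozygous and 0.0968 and 0.171 CPM in wild-type libraries (6.00, SE 0.35). Of 10 genes of crest in the pharyngeal arches 5 rose and 0 fell (median 0.45), among them Prrx1 (0.45, adjusted p = 0.0071), Prrx2 (0.45, adjusted p = 0.0103) and Alx1 (1.04, adjusted p = 0.00811), homeobox genes that head mesoderm shares in part. Prrx2 did not pass without mutant replicate 2 (adjusted p = 0.0533). In heterozygous against wild type these 6 lists, plate border, specifiers, emigration, migrating crest, SOX10 targets and arch genes, had 0, 0, 0, 1, 1 and 0 genes lower and 0, 1, 1, 3, 1 and 0 higher. Over all genes tested 0.533% were lower and 6.03% higher in heterozygous against wild type. The lists overlap in some genes.

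**Figure D4:**
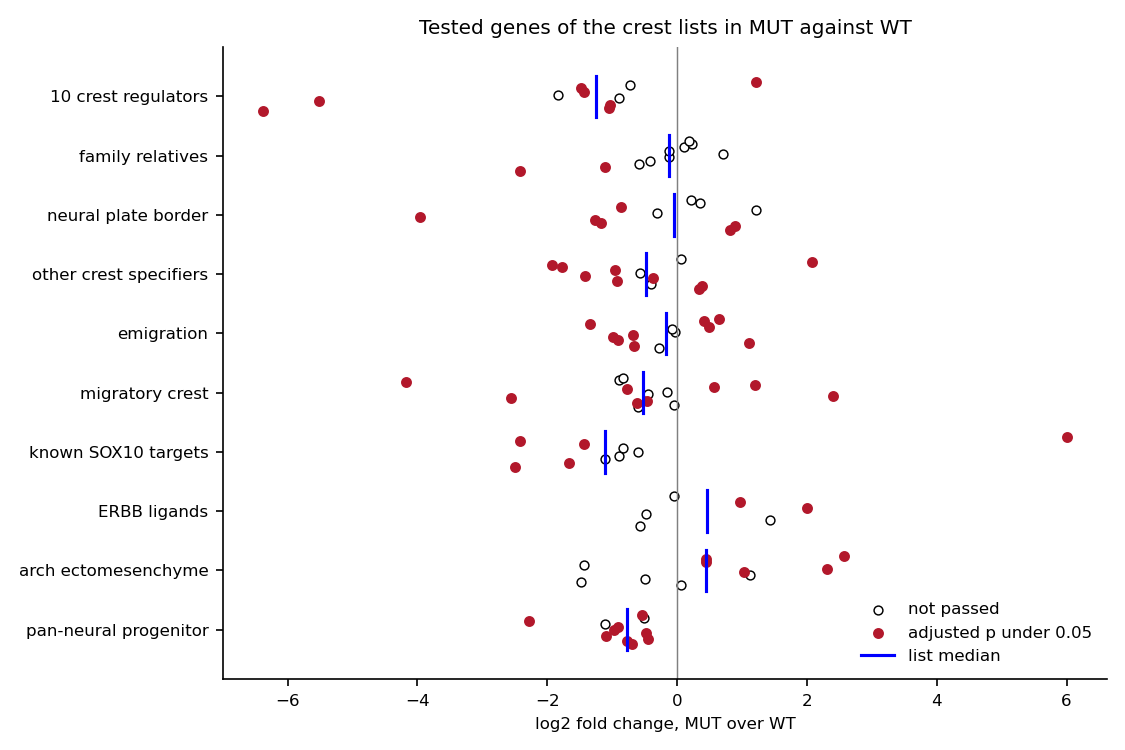
Mutant (MUT) over wild-type (WT) log2 fold change of each tested gene in the crest lists and the pan-neural list; red points passed at an adjusted p under 0.05 and blue lines are list medians. The 10 crest regulators have the lowest median, -1.24, and the other lists lie between -1.12 and 0.46. Members and lists were chosen with earlier results of these data known and share some genes, so this order is no test.

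Genes with the pattern most like that of Sox10 over the 6 libraries, by Pearson's correlation of log2(CPM + 0.5) among 10536 genes with a mean of at least 5 CPM, included Foxi2, Ptpdc1, Usp46, Ralgds, Slc46a1, Fam162a and Sdc3 (r = 0.999 to 0.995). Only Foxi2 and Sdc3 of these had a log2 fold change beyond -2. Foxi2 was at 1.996 and 1.81 CPM in mutant, 3.06 and 10.5 CPM in heterozygous and 16.5 and 16.3 CPM in wild-type libraries, and Sdc3, a syndecan gene, at 28.3 and 27.3 CPM in mutant, 39.9 and 109 CPM in heterozygous and 157 and 214 CPM in wild-type libraries. The genes most like Snai2 were Rbms2, Abca4, Yif1b, Sipa1l2, Vps18, Tmem108, Scand1 and Gigyf2 (r = 0.997 to 0.994). Among the 10 genes themselves Sox10 was most like Tfap2b (r = 0.994), Ets1 most like Erbb3 (r = 0.985) and Sox9 most like Tfap2a (r = 0.973), over the same 6 libraries, which also share the contrast of genotypes.

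The head pieces differed in other tissues too. Against wild type 17.1% of all genes tested were higher and 13.6% lower in mutant heads, beside which the counts of markers stand. Yolk sac endoderm markers, 12 of 12, rose in mutant heads, with summed levels of 5290 and 4401 CPM in mutant, 2928 and 2122 CPM in heterozygous and 160 and 172 CPM in wild-type libraries. Heart markers, 11 of 11 tested, rose too, with 2026 and 1155 CPM in mutant, 1732 and 2732 CPM in heterozygous and 232 and 72.5 CPM in wild-type libraries. Pan-neural progenitor genes went the way of the crest genes: 9 of 11 fell and 0 rose, with 545 and 595 CPM in mutant, 802 and 886 CPM in heterozygous and 1007 and 1006 CPM in wild-type libraries. Markers of other tissues in which some of the 10 genes are used are given next. Surface ectoderm, with 3 of 10 markers higher and 1 lower, summed to 1318 and 1186 CPM in mutant, 949 and 734 CPM in heterozygous and 529 and 536 CPM in wild-type libraries. The median log2 fold change of its markers was 0.11 in mutant against wild type. Sums weigh abundant markers most and do not measure the amount of a tissue, and E-cadherin in this list is a marker of endoderm too. Endothelium, with 2 of 10 higher and 0 lower, was near the share of all genes that were higher. Its markers summed to 434 and 395 CPM in mutant, 362 and 402 CPM in heterozygous and 284 and 400.01 CPM in wild-type libraries, and the mutant and wild-type sums overlapped. Head mesenchyme, with 5 of 10 higher and 0 lower, summed to 546 and 664 CPM in mutant, 499 and 502 CPM in heterozygous and 378 and 381 CPM in wild-type libraries. The remaining lists were trunk and tailbud, cartilage and notochord, germ cells, extraembryonic ectoderm, and stress and immediate early. Trunk and tailbud markers rose in 7 of 11 tested, with 109 and 288 CPM in mutant, 61.7 and 73.5 CPM in heterozygous and 45.9 and 17.5 CPM in wild-type libraries. Cartilage and notochord markers, 2 higher and 2 lower of 8, summed to 360 and 317 CPM in mutant, 398 and 468 CPM in heterozygous and 412 and 444 CPM in wild-type libraries. Extraembryonic ectoderm markers, 4 higher and 2 lower of 8, summed to 273 and 212 CPM in mutant, 125 and 106 CPM in heterozygous and 50.8 and 66.4 CPM in wild-type libraries. Among them Hand1 is also a heart marker here and Cdx2 a trunk and tailbud marker. Germ cell markers, 1 higher and 1 lower of 5 tested, summed to 105 and 147 CPM in mutant, 133 and 106 CPM in heterozygous and 101 and 107 CPM in wild-type libraries. The stress and immediate early genes, 1 higher of 8, summed to 55.2 and 70.3 CPM in mutant, 37.5 and 47.4 CPM in heterozygous and 49.3 and 65.7 CPM in wild-type libraries. No marker was at 0 in all libraries. Summed, the 10 crest regulators were at 218 and 180 CPM in mutant, 251 and 395 CPM in heterozygous and 555 and 620 CPM in wild-type libraries. In bulk RNA fewer crest cells and less RNA per cell cannot be told apart, and the part of the other tissues in the crest values was not tested. Differences of stage among the embryos were not tested either.

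The genes were also read against the pan-neural genes, with libraries scaled to the summed progenitor list, which moved the median of all genes to 0.75. In mutant against wild type 11632 of the 15187 genes tested passed on that scale, so passing there sets no gene apart. Sox10 (-5.61), Tfap2b (-4.74), Erbb3 (-0.67) and Ets1 (-0.71) fell there and Snai2 (1.98) rose. Sox9 (-0.28, adjusted p = 0.285) and Tfap2a (-0.27, adjusted p = 0.193) did not pass on that scale, and Snai1, which did not pass on either, was at 0.05. All of these values lie below that median except that of Snai2. Mutant libraries both had high Xist counts (1226 and 1098 CPM), heterozygous libraries both low (0.352 and 0.271 CPM) and wild-type libraries 1 of each (0.272 and 1333 CPM). Between mutant and heterozygous libraries Xist state and genotype thus cannot be told apart. A term for high Xist rests on the wild-type libraries alone, in every comparison. With a term for high Xist 6 of the 10 genes fell and 1 rose in mutant against wild type. Of all genes 2500 passed there, against 4654 without the term. Snai1 (-0.94, adjusted p = 0.0423) passed with the term and Sox9 (-0.995, adjusted p = 0.0663) did not.

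**Figure D5:**
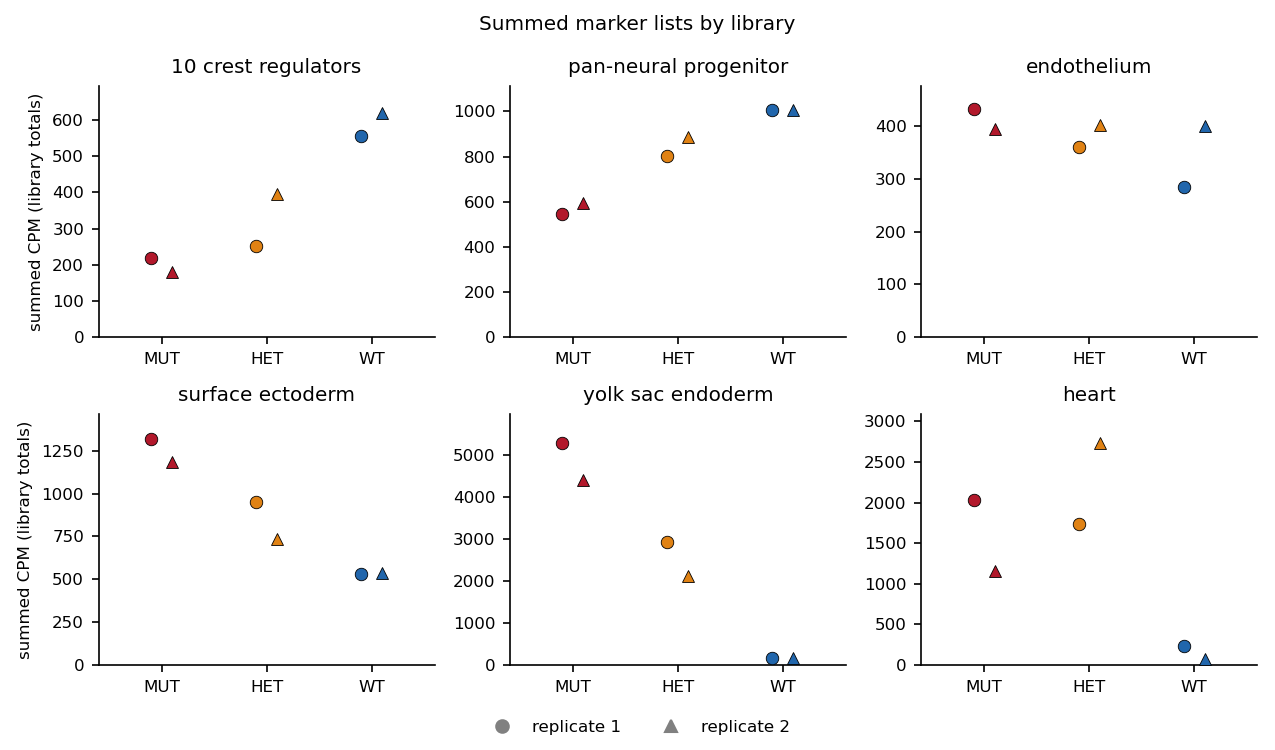
Summed CPM (library totals) of the 10 crest regulators and 5 marker lists in mutant (MUT), heterozygous (HET) and wild-type (WT) libraries; points are single libraries and the shape gives the replicate. The crest sum was 218 and 180 CPM in mutant against 555 and 620 CPM in wild-type libraries, and the yolk sac sum 5290 and 4401 against 160 and 172 CPM.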

How the data were processed

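Whole-head RNA was polyA-selected and sequenced as paired-end, strand-specific libraries, per the labels' protocols. The submitters' processing notes name TopHat2 (2.0.11), HTSeq (0.6.1p2), edgeR (3.8.6) and the build mm10. Neither the annotation nor the strand setting is given in these sources. Unnormalized counts for every gene and library were deposited; the 5 summary lines (8.93% to 10.5% in no feature, 1.04% to 1.08% ambiguous, 12.7% to 14.5% not unique) were left out. The authors also deposited a table with RPKM values per library, log2 fold changes and average log2 CPM, p-values, false discovery rates and a score, the likelihood ratio; its second comparison, over all genotypes, was not analysed here.

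Count files were assigned to the title whose RPKM column they matched in zeros and, at genes above 50 counts, in the ratio of count to RPKM within 0.1%. The test of the counts was the quasi-likelihood F-test of edgeR 4.0.16 under R 4.3.3 (TMM, filterByExpr, 6 libraries in 1 fit, 3 residual degrees of freedom, Benjamini-Hochberg at 0.05); adjusted p-values with no tool named are its own. SEs are the absolute log2 fold change over the square root of F. CPM of single genes uses TMM library sizes, list sums and genes below the filter library totals. Floors of 3 reads cover counting error only. Alternatives were DESeq2 1.42.0, the likelihood ratio test, limma 3.58.1 on log2(RPKM + 0.1) and log2(RPKM + 1), other scalings, no filter, 2-group fits, a term for Xist above 10 CPM, each library left out, and the files as attached. Members and lists were chosen with earlier results of these data known. Named genes are the 10 regulators, their tested relatives, the up to 4 smallest p of each crest list and the 8 genes most like Sox10 and Snai2. Results for some of these genes are not reported here. Gene positions were read from GENCODE M21 (GRCm38, which is mm10).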

Additional observations from a re-analysis of the deposited data

How the results depend on the processing

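By attached file, all counts of calls were 0 in all comparisons, members and all genes alike, against 6 members lower, 1 higher and 4654 genes in all in mutant against wild type by title. There the mutant against wild-type log2 fold changes turned round, with adjusted p = 1, to 0.30 for Sox10, 0.056 for Tfap2b, 0.29 for Erbb3, 0.26 for Ets1, -0.44 for Snai2, 0.62 for Sox8, 0.39 for Foxd1, -0.27 for Msx2, -0.36 for Bmp4, 0.074 for Myc, -0.028 for Fn1, 0.069 for Zeb2, -0.45 for Nrp1, 0.065 for Robo1, -0.15 for Plxna2 and -0.39 for Gjb1. Tfap2c (0.38) and Snai1 (0.27), which did not pass by title, changed sign by attached file as well. Scaled to the progenitor list, Erbb2 was at 0.64, Mycn at 0.40 and Zeb2 at 0.11.

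Leaving out single libraries gave 4 to 7 members lower and 1 to 1 higher, and 1997 to 4265 genes in all, in mutant against wild type. It gave 0 to 4 lower, 0 to 1 higher and 313 to 748 genes in heterozygous against wild type (main 1, 0 and 997), 0 to 1 lower and 11 to 81 genes in mutant against heterozygous (main 0 and 66), and 0 to 1 higher and 27 to 128 genes against the midpoint (main 0 and 96).

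In mutant against wild type, genes in all were 11632 scaled to the progenitor list, 2500 with the Xist term and 2046 without both exchanged libraries, the last chosen after seeing the data. In heterozygous against wild type, members lower were 2 with DESeq2, 2 with the likelihood ratio test, 0 with 2 groups only, 0 with the Xist term and 0 without both exchanged libraries; members higher were 1 with DESeq2, the likelihood ratio test and progenitor scaling; genes in all were 1890 with DESeq2, 1579 with the likelihood ratio test, 2168 with progenitor scaling and 516 with the Xist term. In mutant against heterozygous, members lower were 4 with DESeq2, 3 with the likelihood ratio test, 2 with progenitor scaling and 2 without both exchanged libraries, members higher 1 with progenitor scaling, and genes in all 1313, 801, 9703 and 180 for these 4 settings, 182 without the filter, 106 with 2 groups only and 4 with the Xist term. Against the midpoint, members higher were 1 (Foxd3) without both exchanged libraries, and genes in all were 367 with DESeq2, 396 with the likelihood ratio test, 147 without the filter, 63 and 29 with limma at the low and high pseudocount, 0 with the Xist term and 293 without both exchanged libraries.

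Of 1322 values of single genes under an alternative, 1175 kept their side of the threshold, 77 lost and 51 gained a call and 19 turned round, while 61 of the 1175 changed sign with no call either way. The causes were not tested. No paired analysis was possible because the labels number no replicates across genotypes. With 2 libraries a group, 1 library can decide a call, and a fit without it holds no spread within that genotype. Sox10, Tfap2b and Ets1 lost theirs when either mutant library was left out, though Sox10 stayed at -6.72 and -6.14. All genotypes share 1 estimate of the spread, so the heterozygous libraries enter these p-values too. With only mutant and wild-type libraries fitted, adjusted p by the quasi-likelihood test was 0.00078, 0.00426 and 0.00499 for Sox10, Tfap2b and Ets1. With all 6 libraries it was 0.0140, 0.0151 and 0.0119.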

Other observations

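Beyond the 6 genes named above, genes with large gaps between the heterozygous libraries included Prap1, Nanog and Myl2. Nanog, a pluripotency gene, was at 6.12 and 6.20 CPM in mutant, 5.93 and 0.536 CPM in heterozygous and 0.677 and 0.768 CPM in wild-type libraries. Lefty2, a Nodal antagonist gene, was at 20.6 and 8.76 CPM in mutant, 34.5 and 1.14 CPM in heterozygous and 0 and 0.0284 CPM in wild-type libraries. In both of these genes heterozygous replicate 2 was lower than heterozygous replicate 1 and than both mutant libraries. Myl2, a ventricular myosin gene, was instead highest in heterozygous replicate 2, at 3.03 and 1.77 CPM in mutant, 3.99 and 26.7 CPM in heterozygous and 0.387 and 0.0284 CPM in wild-type libraries. These genes were chosen after their values were seen, and no test was made of them.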
